A study of Mus musculus with 2 samples.

Results

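A set of 10 genes, grouped as macrophage and granulocyte genes, was examined for trimethylation of histone H3 at lysine 27 (H3K27me3) in MEL cells, out of 21911 protein-coding genes. The 10 genes were picked by name: the growth factor receptors Csf1r and Csf3r, the co-receptor Cd14, the lysozymes Lyz2 and Lyz1, the peroxidases Mpo, Lpo and Epx, and the transcription factors Irf8 and Cebpa. They were picked with earlier results of these data known. Their counts beside those of all genes are therefore descriptive and do not show enrichment. Each was described over its gene body plus 20 kb on each side, called its window here. MEL is an immortalised mouse leukaemia line of erythroid character, listed by the submitters as a counterpart of the human line K562. The series holds 1 group, chromatin immunoprecipitated with an antibody to H3K27me3 in 2 replicates that the labels call biological, and the labels name no treatment, second genotype or other condition. No comparison between conditions could therefore be made, and no test is attached to any value. The authors deposited a list of peaks for each replicate, a pooled list called on both replicates together and a replicated list, which is a subset of the pooled list. Values are from the replicated list unless another is named. On chromosomes 1 to 19, X and Y replicate 1 held 70901 peaks covering 0.59% of the genome, replicate 2 held 106995 covering 0.877%, the pooled list 69721 covering 0.699% and the replicated list 38298 covering 0.477%. Read depth is unknown, because the lists hold no read counts, and uncovered bases may still carry the mark. The signal value and −log10 q of a peak are the authors' and describe it within its own list. Positions are on mm10 (GRCm38).

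H3K27me3 is laid down by Polycomb repressive complex 2 and is found over genes that are held silent in a given cell type, often in stretches that begin at CpG-rich promoters. Macrophages and granulocytes arise from myeloid progenitors, a branch of blood formation apart from the erythroid branch. Cebpa and Irf8 are transcription factors that direct progenitors towards granulocytes and monocytes. Csf1r and Csf3r receive the growth factors that keep these cells alive and dividing. Cd14, Lyz2, Mpo and Epx encode products of these cells. Lyz1 and Lpo, grouped with them here, encode the lysozyme of Paneth cells and the lactoperoxidase of secretions.

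Sequences of 5 of the promoters and peaks are printed first, 5′ to 3′ on the strand of the gene, with the dinucleotide CG in capitals (CG reads the same on both strands). The Lpo promoter is shown because replicated peaks covered all 300 bases of it, and the 2 peaks because they were the replicated peaks nearest to the starts of Lyz2 and Epx. The Cebpa and Irf8 promoters are shown because these were the genes with no replicated peak in the window. No list covered a base of the RefSeq promoters of Csf3r, Lyz2, Lyz1, Mpo and Epx either, which held 9, 1, 2, 2 and 5 CG and are not printed. Promoter sequences are those of RefSeq (GRCm38.p6), from 250 bases before to 50 bases after a start, and peak sequences were read from the GRCm38 reference. The RefSeq table matched 8 of the 10 genes.
Lpo promoter, chr11:87826065-87826364, minus strand: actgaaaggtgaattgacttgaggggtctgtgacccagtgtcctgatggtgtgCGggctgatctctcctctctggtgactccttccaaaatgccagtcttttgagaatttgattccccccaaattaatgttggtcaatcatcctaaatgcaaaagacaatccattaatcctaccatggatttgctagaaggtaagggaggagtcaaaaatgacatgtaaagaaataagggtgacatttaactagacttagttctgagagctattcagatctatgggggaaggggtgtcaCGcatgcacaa
Lyz2 peak, chr10:117282613-117282840, minus strand: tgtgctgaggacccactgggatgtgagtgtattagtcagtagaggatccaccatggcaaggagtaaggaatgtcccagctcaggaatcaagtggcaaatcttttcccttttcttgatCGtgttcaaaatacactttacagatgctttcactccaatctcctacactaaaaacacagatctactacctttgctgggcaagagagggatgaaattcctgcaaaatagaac
Epx peak, chr11:87875249-87875398, minus strand: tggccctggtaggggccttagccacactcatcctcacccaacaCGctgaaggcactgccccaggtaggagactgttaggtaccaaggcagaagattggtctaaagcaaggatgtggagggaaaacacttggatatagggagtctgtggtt
Cebpa promoter, chr7:35119043-35119342, plus strand: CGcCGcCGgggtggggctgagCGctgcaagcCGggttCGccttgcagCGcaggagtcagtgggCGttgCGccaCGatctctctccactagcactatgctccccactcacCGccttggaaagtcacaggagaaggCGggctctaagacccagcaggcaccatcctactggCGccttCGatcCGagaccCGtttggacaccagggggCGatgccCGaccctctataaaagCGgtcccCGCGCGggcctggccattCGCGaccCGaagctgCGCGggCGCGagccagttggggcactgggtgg
Irf8 promoter, chr8:120736108-120736407, plus strand: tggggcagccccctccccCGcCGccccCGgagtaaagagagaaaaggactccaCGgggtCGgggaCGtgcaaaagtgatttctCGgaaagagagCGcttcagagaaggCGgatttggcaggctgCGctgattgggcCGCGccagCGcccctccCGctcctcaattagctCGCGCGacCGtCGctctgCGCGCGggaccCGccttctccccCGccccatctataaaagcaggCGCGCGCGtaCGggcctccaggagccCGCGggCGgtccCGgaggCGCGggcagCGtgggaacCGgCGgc
The Lpo promoter held 2 CG dinucleotides and was 43.3% G and C. The Lyz2 and Epx peaks held 1 CG each. The Cebpa promoter held 29 and the Irf8 promoter 38. Of 32851 RefSeq promoters of this length, 85.9% held at least as many CG as that of Lpo, 12.9% as many as that of Cebpa and 4.95% as many as that of Irf8. The peak at Lyz2 lay 292 bp upstream of the start, and the peak at Epx reached from the coding part of the first exon into the first intron.

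Replicated peaks lay within 5 kb of the start of Csf1r, Cd14, both lysozyme genes, Lpo and Epx. They lay farther off at Csf3r and Mpo, and none lay in the windows of the transcription factors. Replicated peaks lay at most 1 kb from the start of 5 of the 10 genes (Csf1r, Cd14, Lyz2, Lpo and Epx), against 3% of all protein-coding genes. Within 5 kb the count was 6, with Lyz1 added, against 10.4% of all genes. In the window it was 8, with Csf3r and Mpo added, against 30.9%. The own list of replicate 1 gave 5, 7 and 8 of the 10 genes at these distances, against 4.46%, 15.7% and 42.2% of all genes. That of replicate 2 gave 7, 8 and 9, against 6.28%, 19.8% and 49.8%. The pooled list gave 6, 7 and 8, against 4.48%, 14.2% and 39.2%. Neighbouring peaks up to 3 kb apart were then joined into domains, measured over their full length even where they ran past the window. A domain of at least 3 kb reached into the window of 7 of the 10 genes, against 12.3% of all genes. The counts were 6 in replicate 1, 7 in replicate 2 and 7 in the pooled list, against 18%, 25.1% and 18.4%. In the replicated list Mpo was counted only through a domain of 5650 bp at the Lpo start, which its window cut. Lyz1 was counted only through the domain at the Lyz2 start. The domain at the Epx start was 2867 bp, too short to count. Epx was counted through a domain of 11512 bp upstream of Lpo, which its window cut, and a domain of 4785 bp in the neighbouring gene Olfr462. The median share of the window under replicated peaks was 2.8% over the 10 genes and 0% over all genes, with means of 3.96% and 0.901%. Over the 10 genes it was 4.8% in replicate 1, 6.68% in replicate 2, 4.39% in the pooled list and 0% with replicated peaks of a −log10 q of at least 2. These are counts over few genes that are not all separate: the windows of Lyz2 and Lyz1 overlap, as do those of Mpo, Lpo and Epx, which leaves 7 separate stretches of the genome.

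**Figure D1:**
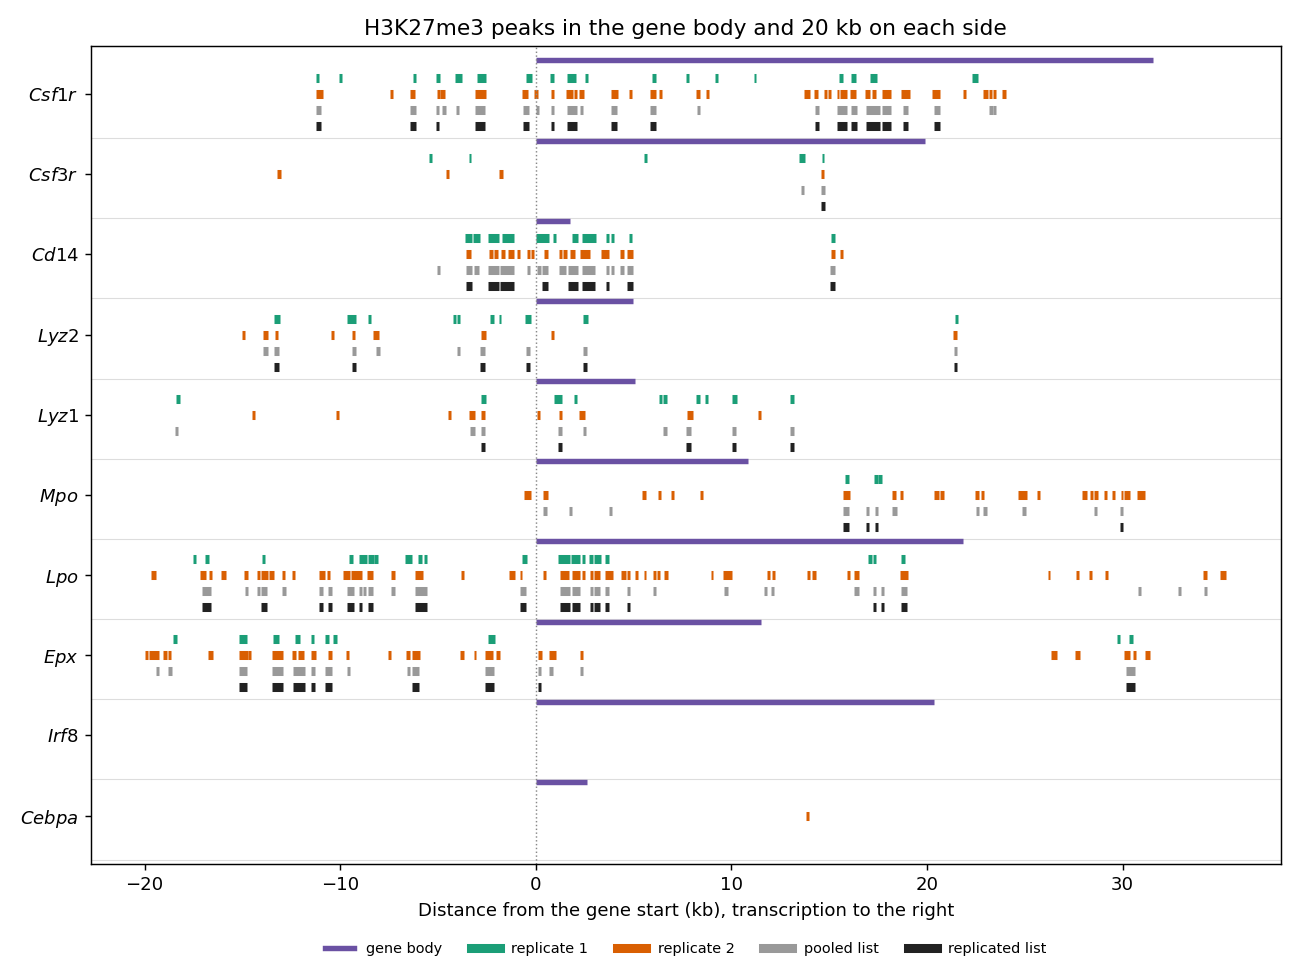
Peaks in the window of each gene, by distance from the gene start in kb with transcription to the right; the bar above each row is the gene body and the 4 rows of blocks are the peaks of replicate 1, replicate 2, the pooled list and the replicated list. Blocks cluster in the windows of Cd14, Csf1r, Lpo and Epx, those of Epx mostly outside the gene body, and no list shows a block at Irf8.

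The 10 genes were covered to very different degrees, as the plot of bases within 5 kb of the start shows. Cd14 had 3448 bases, Lpo 2124, Csf1r 1840, Lyz2 697, Epx 587 and Lyz1 476, and Csf3r, Mpo, Irf8 and Cebpa had 0. In each replicate Cd14 was highest, followed by Lpo and then Csf1r, and the replicates differed in the order below these. Among all protein-coding genes, 60 had more bases than Cd14, 207 more than Lpo and 261 more than Csf1r. By share of the window the order was Cd14 with 8.87%, Lpo 8.6%, Csf1r 7.8%, Epx 6.91%, Lyz2 3.01%, Lyz1 2.6%, Mpo 1.54% and Csf3r 0.269%. The first 4 genes in that order did not differ beyond the spread between replicates: replicate 1 had Cd14 highest at 10.6%, and replicate 2 had Lpo highest at 18.9% and Cd14 at 10%.

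**Figure D2:**
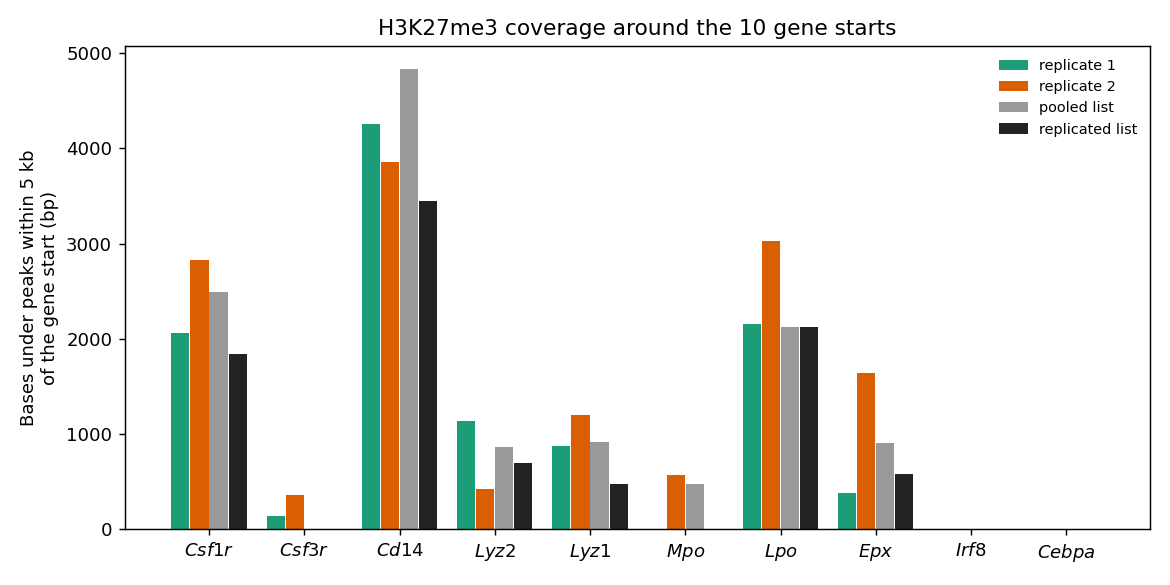
Bases under peaks within 5 kb of each gene start, in bp, in replicate 1, replicate 2, the pooled list and the replicated list. Cd14 reaches 4262 bases in replicate 1 and 3861 in replicate 2, and Irf8 and Cebpa have no bar.

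**Figure D3:**
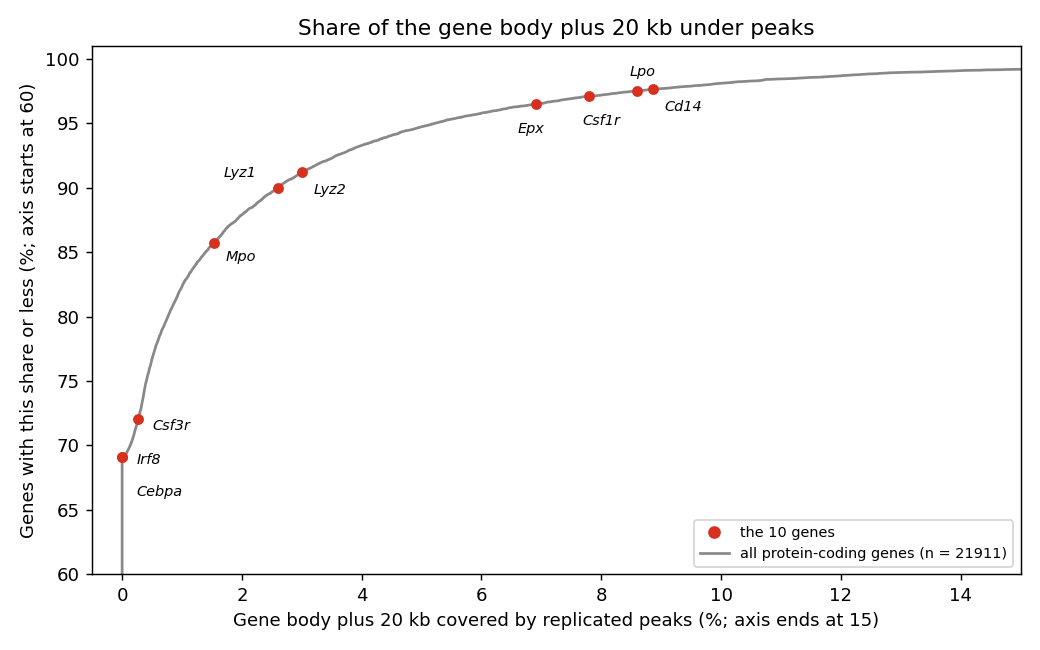
Share of the gene body plus 20 kb under replicated peaks (x axis, percent) against the percentage of the 21911 protein-coding genes with that share or less (y axis); points are the 10 genes. Cd14, Lpo, Csf1r and Epx lie between 6.91% and 8.87% covered, and Irf8 and Cebpa lie at 0.

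Csf1r, the receptor for the macrophage growth factor CSF1, carried peaks upstream and in parts of its body (chromosome 18, 61100598 to 61132149, plus strand). Replicated peaks covered 12.9% of the body, with 7.95% in replicate 1 and 21.2% in replicate 2. No replicated peak of the window lay beyond 61121269. The Csf1r window had 5584 bases under replicated peaks, with 4251 in replicate 1 and 8743 in replicate 2. Replicate 2 thus had 2.06 times the bases of replicate 1, against a ratio of 1.49 over the whole genome. A domain of 12584 bp held the gene start (61094186 to 61106769, 8 peaks, 20.2% of its bases covered). Replicate 1 covered 19.5% of that stretch and replicate 2 27.5%. A further domain of 6419 bp lay inside the gene (61114851 to 61121269, 7 peaks), with 12% of it covered in replicate 1 and 48% in replicate 2. Of the 16 replicated peaks of the window, 5 lay upstream and 11 in the gene body, where 8 touched no annotated exon.

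The annotated start of Csf1r belongs to a non-coding transcript, and the protein-coding transcripts start 4974 to 5254 bp further in. Around the outermost of these coding starts (61105572) 1278 bases within 5 kb were under replicated peaks, with 1282 in replicate 1 and 2409 in replicate 2. Within 1 kb of it the replicated list had 312 bases, replicate 1 had 24 and replicate 2 had 498. Around the non-coding start the values within 1 kb were 449, 506 and 674 bases, so the replicates were closer to each other there. The neighbouring genes Pdgfrb, which encodes a receptor for platelet-derived growth factor, and Hmgxb3 had no peak inside the window in any of the 4 lists.

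Csf3r, the receptor for the granulocyte growth factor CSF3, carried few peaks (chromosome 4, 126024550 to 126044440, plus strand). The replicated list held 1 peak of 161 bp in its window, in an intron 14603 bp downstream of the start (126039153 to 126039313), and both replicates had a peak there. Replicate 1 had 5 peaks and 855 bases in the window and replicate 2 had 4 peaks and 696 bases, and 140 bases were shared. Its window share was 0.73 times that of chromosome 4 as a whole in the replicated list and 0.919 times in the pooled list, but 3.08 times in replicate 1 and 1.67 times in replicate 2. For Csf1r the ratio to chromosome 18 was 28, with 14.9 in replicate 1 and 18.6 in replicate 2. Within 5 kb of the start the replicates had 140 and 364 bases, and the pooled and replicated lists had 0.

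Cd14, which hands bacterial lipopolysaccharide to Toll-like receptor 4, had the most covered bases within 5 kb of its start of the 10 genes, in all 4 lists (chromosome 18, 36725067 to 36726798, minus strand). The gene is only 1732 bp long and lay inside a domain of 8545 bp (36721832 to 36730376) made of 8 peaks, with 40.4% of its bases covered. Replicate 1 covered 49.5% of that stretch and replicate 2 45.1%, and their own lists gave domains of 8534 bp and 8522 bp, so the extent was nearly equal. The strongest peak lay at the end of the gene (36724663 to 36725134), with a signal value of 6.52 and a −log10 q of 4.48. The peaks on the upstream side with the next highest −log10 q, 2.79 and 2.52, began 1102 bp and 1883 bp before the start. Within 5 kb 1546 bases lay upstream and 1902 downstream. Replicated peaks covered 292 bases within 1 kb of the start, where replicate 1 had 798 and replicate 2 663. The replicates differed in the side covered. In the 500 bases upstream of the start replicate 1 had 11 and replicate 2 317, and in the 500 bases from it 500 and 85. No pooled or replicated peak lay over the start.

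Outside that domain the Cd14 window held 1 replicated peak. Its neighbours Tmco6, Ndufa2, which encodes a subunit of respiratory complex I, and Ik had no peak in the window in any list. All 9 replicated peaks of the window overlapped both replicates' own lists, and 38.8% of the bases covered in either replicate were covered in both, against 10.8% over chromosome 18 and 15.8% over the genome. In covered bases per 500 bp over 5 kb on each side of the start, the genes most like Cd14 were Taar5 and Gsdma2, each with a Pearson's r of 0.60 over 20 bins, out of 2262 genes with a peak there. As the highest of so many correlations over few bins, this r does not by itself show a likeness. Taar5 had 1017 bases within 5 kb and Gsdma2 2844.

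The lysozyme genes Lyz2 and Lyz1, which encode enzymes that cut bacterial cell walls, lie next to each other on chromosome 10 (117277331 to 117282321 and 117287797 to 117292868, minus strand). Lyz2 is the form of macrophages and Lyz1 that of Paneth cells of the gut. Peaks were short and scattered at both. Lyz2 had 697 bases within 5 kb of its start, with 1141 in replicate 1 and 423 in replicate 2. Lyz1 had 476, with 872 in replicate 1 and 1199 in replicate 2. The replicates thus ranked the pair in opposite order. Of the 3 replicated peaks within 5 kb of the Lyz2 start, 2 overlapped only replicate 1 and 1 only replicate 2. Both peaks near Lyz1, in an intron 1130 bp downstream and 2575 bp upstream of the start, overlapped both. None of these replicated peaks reached a −log10 q of 2, and the highest was 1.49. In the own list of replicate 1 the highest in the Lyz2 window was 3.38, and in that of replicate 2 it was 1.94.

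Around the pair as a whole 2387 bases were covered in replicate 1 and 2099 in replicate 2, with 431 in both, or 10.6% of the bases covered in either. On chromosome 10 as a whole that share was 11.3%. When the DNA of the genes was aligned, 92.7% of 947 aligned bases were identical in the 1 kb downstream of the starts, leaving out 106 gap bases. In the 1 kb upstream 66.4% of 852 were identical, leaving out 296 gap bases. How reads that align to both copies were handled is not given in the sources used here, and its part in these values was not tested.

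The peroxidase genes Mpo, Lpo and Epx lie in a row on chromosome 11, and peaks were unevenly spread over them. They encode haem enzymes that make oxidants against microbes: myeloperoxidase of neutrophils, lactoperoxidase of secretions such as milk and saliva, and eosinophil peroxidase. Chromosome 11 was the most covered chromosome, with 1.86% of it under replicated peaks, and 20.7% of its protein-coding genes had a peak within 5 kb of the start and 48.2% in the window. The share of the Lpo window covered was 4.63 times that of the chromosome, with 3.97 in replicate 1 and 7.06 in replicate 2. For Epx it was 3.72 times, with 2.36 and 5.24. For Mpo it was 0.83 times in the replicated list and 0.508 in replicate 1, but 3.41 in replicate 2 and 1.87 in the pooled list.

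Lpo (87806428 to 87828289, minus strand) had 2124 bases under replicated peaks within 5 kb of its outermost start, with 2162 in replicate 1 and 3028 in replicate 2. Most of them gathered at a start further inside the gene. A second protein-coding transcript begins 2176 bp downstream (87826113), and within 1 kb of it 1269 bases were covered, with 1557 in replicate 1 and 1325 in replicate 2. Within 1 kb of the outermost start the values were 354, 256 and 290. The strongest peak of the window by −log10 q, 2.86, lay over the inner start (87826046 to 87826456) and took in the whole RefSeq promoter printed above. In all 4 lists that promoter was fully covered. The peak over it was weak in replicate 1, with a −log10 q of 0.41, and had 4.87 in replicate 2. In the own list of replicate 1 the highest −log10 q of the window, 4.76, was at another peak (87826542 to 87827140).

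Upstream of Lpo a domain of 11512 bp (87833832 to 87845343, 8 peaks, 22.3% covered) lay in sequence without an annotated protein-coding gene. Replicate 1 covered 19.1% of it and replicate 2 36%. In the own list of replicate 2 this stretch joined with the peaks over Lpo into a domain of 39933 bp with 44 peaks (87809270 to 87849202), of which replicate 1 covered 12.6% and replicate 2 27%. Over the whole stretch from Mpo to Epx replicate 2 covered 17946 bases and replicate 1 7148, a ratio of 2.51, against 1.31 for chromosome 11. Values at this row of genes therefore moved with the replicate more than those of the chromosome did.

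Epx (87864000 to 87875536, minus strand) had 587 bases within 5 kb of its start, with 384 in replicate 1 and 1646 in replicate 2. The peak in its first exon and intron, printed above, was a weak peak with a −log10 q of 0.11 and overlapped no peak of replicate 1. Replicate 1 had no peak in the gene body and replicate 2 had 3. The strongest peaks of its window, with a −log10 q of 2.04 each, lay in the neighbouring olfactory receptor gene Olfr462, whose body had 2149 bases under 5 replicated peaks. The gene Mks1 on the other side, needed for cilia, had no peak in the window in any list.

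Mpo (87793581 to 87804413, plus strand) had no replicated peak in its body or within 5 kb of its start. The 4 replicated peaks of its window all lay in Lpo. Replicate 1 had no peak in the body either, and replicate 2 had 5 with 864 bases. Within 5 kb of the start replicate 2 had 570 bases and the pooled list 478. Pxdn, a gene of the same family whose product crosslinks basement membrane, had no peak in the gene body plus 20 kb in the replicated list.

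The transcription factor genes Irf8 and Cebpa stood apart from the other 8 genes in having no replicated peak in their windows. Irf8 (chromosome 8, 120736358 to 120756694, plus strand) had no peak in any of the 4 lists. The nearest replicated peak lay 484 kb upstream of its start, the nearest of replicate 1 427 kb and the nearest of replicate 2 30.2 kb upstream. Chromosome 8 was sparsely covered, at 0.173%, and 18.6% of its genes had a replicated peak in the window. Cebpa (chromosome 7, 35119293 to 35121928, plus strand) had 1 peak of 140 bp in replicate 2 alone, 13.8 kb downstream of the start, and no peak in the other 3 lists. The nearest replicated peak lay 37.8 kb upstream. A window without a peak was the more common state, as 30.9% of all genes had one with a peak.

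The promoters of the transcription factor genes differed from those of the other 8 genes in CpG content, which was not used to choose the genes. In the 300 bases from 250 before to 50 after the annotated start, the ratio of observed to expected CpG was 1.03 at Irf8 and 0.85 at Cebpa. At the other 8 genes it ranged from 0.08 at Lyz2 to 0.36 at Csf1r, and the median of all protein-coding genes was 0.52. Across all genes, replicated peaks lay at most 1 kb from the start for 4.52% of 7373 genes with a ratio under 0.3, 3.42% of 4818 genes from 0.3 to 0.6 and 1.65% of 9720 genes at 0.6 or more. Of the 10 genes the counts in these classes were 3 of 6, 2 of 2 and 0 of 2. Within 5 kb the classes were closer to each other, at 12.2%, 11.8% and 8.21% of all genes. The counts of the 10 genes there were 4 of 6, 2 of 2 and 0 of 2.

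**Figure D4:**
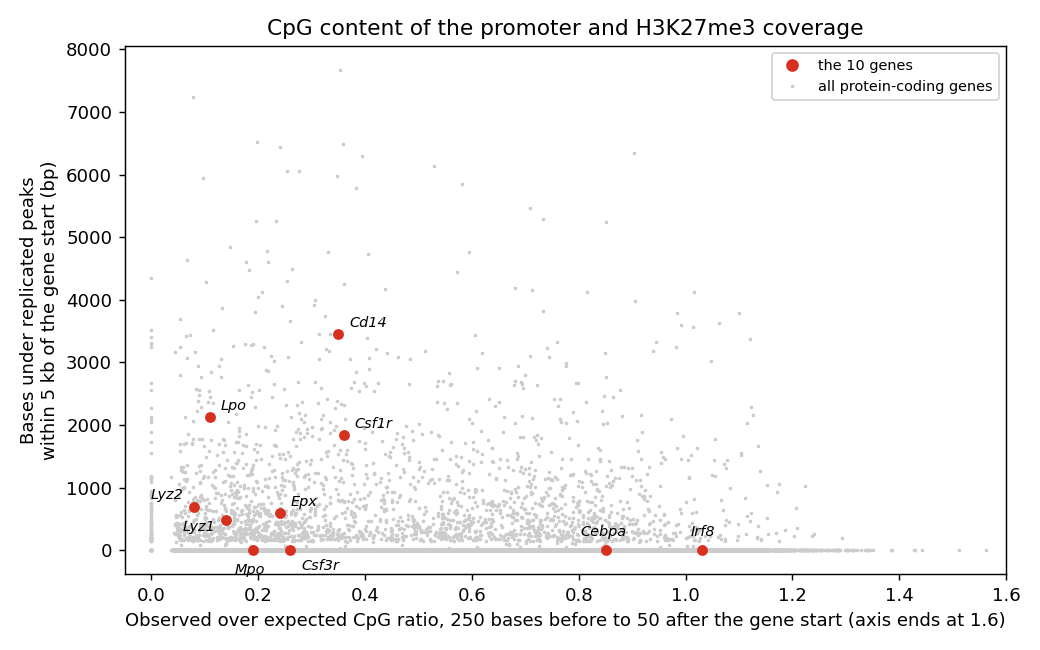
Observed over expected CpG ratio of the promoter (x axis) against bases under replicated peaks within 5 kb of the gene start (y axis, bp), for the 10 genes (large points) and all protein-coding genes (small points). Irf8 and Cebpa lie at ratios of 1.03 and 0.85 with 0 bases, and those of the 10 genes that have bases lie at 0.36 or less.

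Most of the peaks were weak. Of the 58 replicated peaks in the windows together, 10 had a −log10 q of at least 2, or 17.2%, against 10.9% of the whole replicated list. They were 3 at Cd14, 4 at Lpo, 2 at Epx and 1 at Csf1r. With these peaks alone no gene of the 10 had a peak within 1 kb of its start, against 0.589% of all genes. Cd14 and Lpo had one within 5 kb, against 2.28% of all genes, and Csf1r, Cd14, Lpo and Epx had one in the window, against 9.28%. Of the 58 peaks 43 overlapped the own lists of both replicates, or 74.1%, against 72.4% of the whole list. The authors used those lists to make the replicated list, so this overlap is not separate support.

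**Figure D5:**
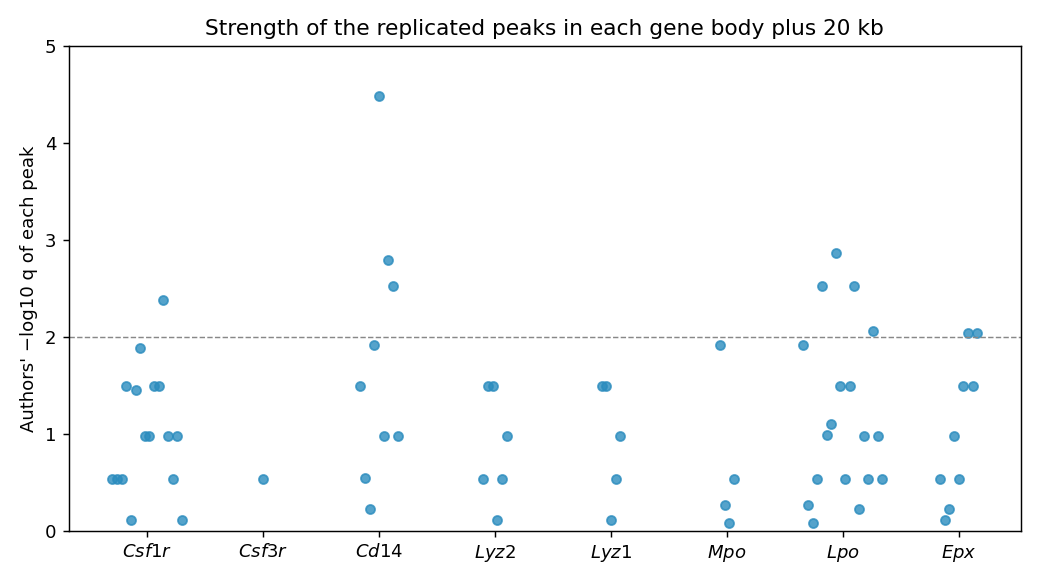
The authors' −log10 q (y axis) of each replicated peak in the gene body plus 20 kb of the 8 genes that have a peak (x axis); the dashed line marks 2, and peaks in overlapping windows appear under each gene. The highest point, 4.48, is at Cd14, and all points of Csf3r, Lyz2, Lyz1 and Mpo lie below the line.

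Wider lists of myeloid genes were counted in the same way, with no test. Of 24 further genes of macrophages and monocytes 0 had replicated peaks at most 1 kb from the start, 3 within 5 kb and 8 in the window. The 3 were Mertk, a receptor for the uptake of dying cells, with 783 bases within 5 kb, the signalling adaptor gene Tyrobp with 495 and the integrin gene Itgam with 242. Of 29 further genes of granulocytes 1 had a peak within 1 kb, 4 within 5 kb and 11 in the window. The iron-trapping protein gene Lcn2 had 511 bases, the calcium-binding protein gene S100a9 457, the collagenase gene Mmp8 260 and the eosinophil granule protein gene Prg3 201. Of 15 further myeloid transcription factors 0, 2 and 5 had a peak at these distances, and the 2 were the relatives of Cebpa named Cebpd, with 1147 bases, and Cebpe, with 454. These shares stand beside the 3%, 10.4% and 30.9% of all protein-coding genes.

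The cell type of the label was set against erythroid genes, though peaks of a silencing mark do not measure expression. Of 20 erythroid markers 1 had replicated peaks at most 1 kb, and also at most 5 kb, from the start, and 7 had one in the window. It was Slc4a1, the anion exchanger of red cells, with 2099 bases (2080 in replicate 1 and 1274 in replicate 2). Of 12 housekeeping genes 0 had a replicated peak at any of these distances. Among all protein-coding genes the shares were 3% within 1 kb, 10.4% within 5 kb and 30.9% in the window. Both lists are short, and their counts were not tested against these shares.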

How the data were processed

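H3K27me3 in MEL cells was measured by ChIP-seq in 2 replicates, numbered in the labels, with library fragments of 150 to 350 bp. The labels call them biological. Nothing in the sources says whether they came from separate cultures, so their spread may still be technical. Per the authors' deposited text files, each replicate's peaks were called on its mm10 alignments against 1 control that both share, the pooled list on the reads of both, and the replicated list comes from those 3. For the aligner, the caller and the rule for keeping peaks, the answer is not given in the sources used here. The authors deposited for each peak a signal value, a score whose definition is not stated, and a −log10 p and −log10 q. The mm9 list was not used here.

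All peaks of the autosomes, X and Y were set against GENCODE mouse release 21 protein-coding genes, keeping the longest gene of a repeated symbol, and the outermost 5′ end was the start. Covered bases are of the union of peaks; an overlap of 1 bp counted, and peaks up to 3 kb apart were joined into domains. The genes, and the wider lists, were chosen with earlier results of these data known. Named genes are the 10, protein-coding genes in their windows with a replicated peak, and up to 4 genes of each list with the most bases within 5 kb. The 2 genes most like the most covered of the 10 are also named. Neighbours without a peak and Itgax are outside that rule and were chosen after their values were seen. The alternatives were other lists, stronger peaks, other flanks, starts, overlaps and joining distances. Code was checked on simulated peaks. Python 3.11.15, NumPy 2.4.6, Biopython 1.88 and matplotlib 3.10.9 were used.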

Additional observations from a re-analysis of the deposited data

How the results depend on the processing

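Peak strength changed the counts most. With a −log10 q of at least 2 the count of the 10 genes with a peak within 1 kb of the start was 0 (5 as reported), within 5 kb 2 (6), in the window 4 (8) and with a domain of 3 kb or more 2 (7), and the median share of the window was 0% (2.8%). The stricter threshold keeps fewer peaks by construction. Within 1 kb the count was 3 with the upper 50% of peaks by signal value, and 3 where bases had to lie in equal numbers of the strongest peaks of both replicates. The median share was 4.39% in the pooled list. With the own list of a replicate alone it was 4.8% to 6.68%, and the counts were 5 to 7 within 1 kb, 7 to 8 within 5 kb, 8 to 9 in the window and 6 to 7 with a domain. The other alternatives (any annotated start, 50% of a peak inside, flanks of 5 kb and 50 kb, joining within 1 kb and 10 kb) left these 5 values within 1.5 times or within the spread between replicates. For single genes, 40 of 60 alternative values of bases within 5 kb lay within that spread, 38 of 70 of bases in the window and 38 of 70 of the longest domain. These tallies do not measure robustness, because genes with 0 bases throughout pass and a wide spread between replicates passes easily. Without replicate 2 the longest domain at Lpo fell from 11512 bp to 4429 bp, within its spread. Without replicate 1 that at Cd14 went from 8545 bp to 8522 bp, beyond its spread. No paired analysis was possible because the series has 1 group. Depth is unknown and limits every list to an unknown degree.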

Other observations

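Among the wider lists, the gene with the most covered bases near its start was a mast cell gene. The chymase gene Cma1 (chromosome 14) had 4470 bases within 5 kb of its start, with 4987 in replicate 1 and 4157 in replicate 2, and 19.6% of its window was covered. Mcpt8, a protease gene of basophils on the same chromosome, had 886 bases, with 982 in replicate 1 and 697 in replicate 2. The other 4 genes of that list had 0 bases within 5 kb in the replicated list. Itgam on chromosome 7 had 242 bases within 5 kb of its start and 10191 in its window, or 10.6%, with 9409 in replicate 1 and 13712 in replicate 2, a larger share than that of any of the 10 genes in the replicated list. The integrin gene Itgax of the same list and chromosome had a larger share still, 11.7% or 7163 bases, and 0 bases within 5 kb of its start. The longest domain was 10142 bp at both genes, so the coverage cannot be assigned to Itgam alone.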
